A study of Caenorhabditis elegans with 2 samples.

Results

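The genes described here are the col- genes of Caenorhabditis elegans, the largest family of genes for the collagens of the worm's cuticle. They were taken as every protein-coding gene of the Ensembl annotation of WBcel235 (coordinates of ce11) whose name is col- followed by a number. That gave 156 of the 19985 protein-coding genes, and the other 19829 are set beside them throughout. The members lie on all 6 nuclear chromosomes, with 21 on chromosome I, 24 on II, 12 on III, 41 on IV, 31 on V and 27 on X.

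The study mapped where the zinc finger protein ZTF-11 sits on chromatin, by chromatin immunoprecipitation and sequencing of whole L2 larvae, both sexes mixed and of unknown age. The design holds 1 group, of 2 biological replicates, with no second condition. Both replicates carry the genotype unc-119(ed3) III; wgIs236 (strain OP236), an integrated line whose transgene makes ZTF-11 with a C-terminal GFP-FLAG tag; the labels do not name the promoter that drives it. The antibody field names ztf-11, and each library was set against a control. Whole larvae mix the epidermis with every other tissue, so binding in a few cells and weak binding in many cannot be told apart.

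Cuticle collagens are secreted by the epidermis and assembled outside it into the layers of the exoskeleton, which the larva rebuilds at each moult. Their chains are trimmed by proteases, hydroxylated on proline and cross-linked, and many of the genes are switched on in waves within each larval stage. ZTF-11 belongs to the MYT1 family, known for repressing non-neuronal genes in developing neurons, and the core AAAGTT is the motif known for MYT1 proteins.

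No col- gene had a peak of the authors' thresholded set in its promoter, taken as 1500 bp upstream to 500 bp downstream of the gene's 5′ end. A count of 0 of 156 allows a share of up to 1.92%, counting 3 genes as the limit. Among the other protein-coding genes 200 had such a peak, or 1.01%. Of those, 12 are mitochondrial genes, and without them the share is 0.949%. At the share of the other genes 1.57 members would carry a peak, so with this number of genes a lower share could not be told from the same share. The thresholded set held 210 peaks, 188 of them on nuclear chromosomes, and none of the 210 had its summit in the body of a col- gene.

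The authors' longer lists reach below that threshold and mix peaks with background, so a region in them need not be a bound site. The list made from both replicates pooled held 20223 regions, and 43 col- genes had a summit of it in the promoter. That is 27.6% of the members (95% Wilson interval 21.2 to 35.1), against 35.8% of the other genes. In the list of replicate 1, of 30000 regions, 70 members had a promoter summit, or 44.9% (37.3 to 52.7), against 48.6% of the other genes. In that of replicate 2, also of 30000 regions, it was 68 members, or 43.6% (36.1 to 51.4), against 49.1%. A summit in both replicate lists was found for 27 members, or 17.3% (12.2 to 24.0), against 27.7% of the other genes. The share of members was lower in each of these lists, with a difference of -8.21 percentage points in the pooled list, -3.75 in replicate 1, -5.47 in replicate 2 and -10.4 in both. Without the 77 members whose promoters overlap that of another gene, the pooled share was 31.6% of 79 members. The difference was then -4.13 points, or -4.36 with such genes left out on both sides. The pooled difference of -8.21 points has a 95% interval of -14.7 to -0.695. No interval was made for the 31.6% or for the -4.13 and -4.36 points. The intervals cover counting error only, neighbouring genes share regions, and no test was made, since the members were chosen with earlier results of these data known.

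**Figure D1:**
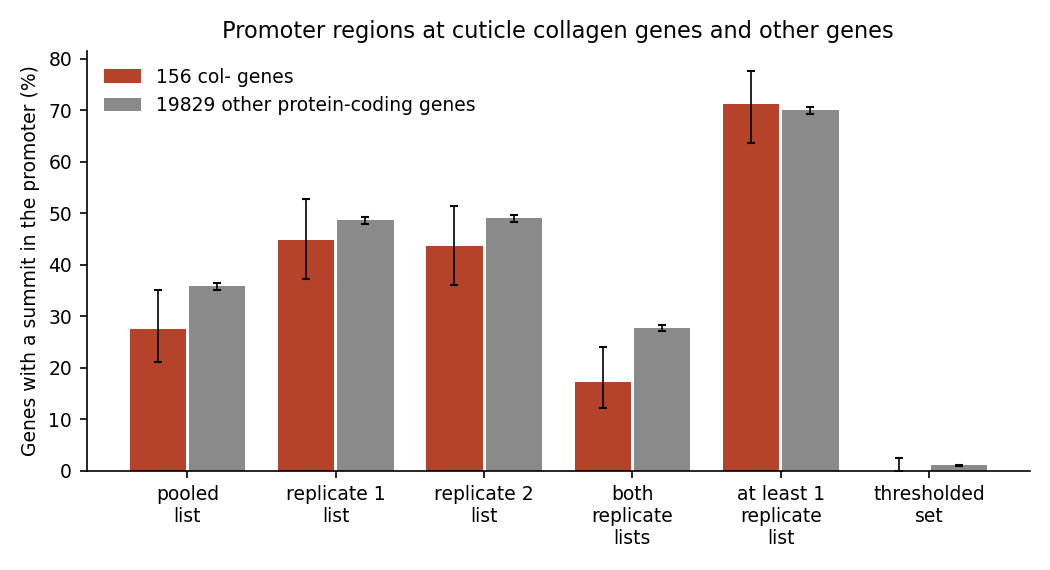
Share of 156 col- genes and of 19829 other protein-coding genes (vertical axis, percent) with a summit in the promoter, for each list; bars are shares and whiskers are 95% Wilson intervals, which cover counting error only. In the pooled list the col- genes stand at 27.6% and the other genes at 35.8%, and in the thresholded set at 0% and 1.01%.

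Only 14 members had a promoter summit in the pooled list and in both replicate lists, or 8.97% of the 156, against 20.3% of the other genes. They were col-8, col-53, col-71, col-85, col-93, col-101, col-108, col-127, col-132, col-133, col-142, col-149, col-185 and col-186, a group read off after the values were seen. The summits need not belong to the same region. At the pooled summit replicate 1 listed no region for col-85, col-127 and col-132, and replicate 2 none for col-108 and col-149. At the other end 41 members, 26.3%, had no summit in any of the 3 long lists. The remaining 115 had at least 1, which is 73.7% of the members and lies beside 71.3% of the other genes. The share with some region was thus close to that of the other genes, unlike the shares in the pooled list alone and in several lists together.

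Each region carries the authors' own value for its signal over the control. Its scale is not stated in the notes or labels, and it ranks regions within a list only. Among the 43 col- genes the highest pooled promoter value ran between 9.19 and 22.2, with quartiles of 10.2 and 13.5 and a median of 11.6. Among the 7094 other genes with a pooled region it started at 9.17, with quartiles of 10.5 and 15.5 and a median of 12.4. The interval of the members' median, from binomial ranks, was 10.5 to 12.8. It held the 12.4 of the other genes, so the lower median of the members was within counting error. The col- genes thus sat in the middle of the list: 21 of the 43 (48.8%) lay above the median of the whole pooled list, 11.7, against 58.1% of the other genes with a region. The highest member, at 22.2, was below the weakest nuclear peak of the thresholded set, at 32.9, and 535 other genes (7.54% of those with a region) were at or above it.

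The members' median was also the lower one in each replicate, where no interval was made. In replicate 1 the 70 members had a median of 6.67 and a highest value of 18.7, against a median of 7.14 for 9642 other genes. In replicate 2 the 68 members had a median of 5.72 and a highest value of 14.2, against a median of 6.09 for 9728 other genes.

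**Figure D2:**
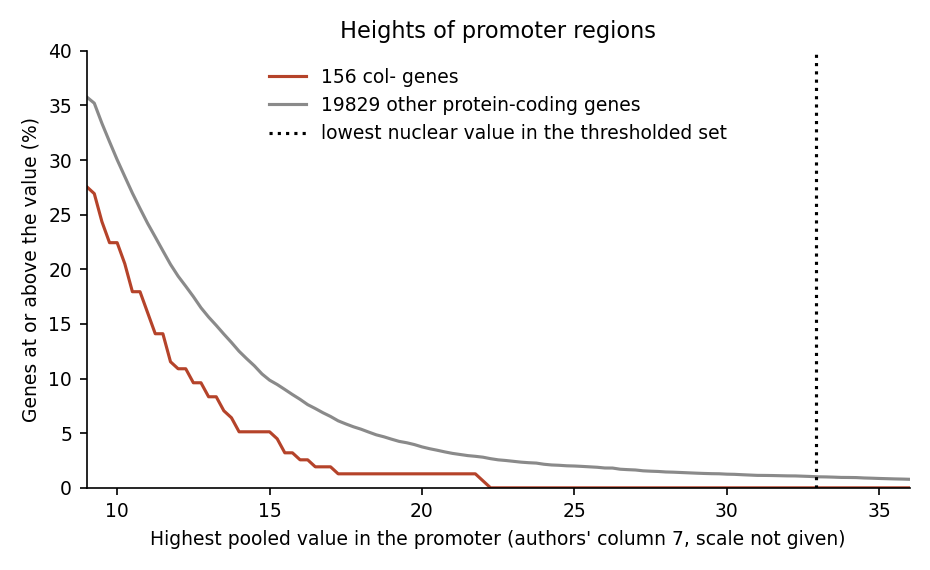
Cumulative share of genes (vertical axis, percent of all genes in the group) whose highest pooled promoter value is at or above the value on the horizontal axis (the authors' value of a region, scale not given). The curve of the 156 col- genes starts at 27.6%, below that of the 19829 other genes at 35.8%, and ends at 22.2, short of the weakest nuclear thresholded peak at 32.9.

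The uppermost member was col-71 (WBGene00000647, chromosome II, 3500077 to 3502570, minus strand). Its region had a pooled value of 22.2, rank 655 of 20223, with the summit 296 bp upstream of the gene. At that summit replicate 1 gave 13.4 and replicate 2 gave 6.48, while the higher 9.80 of replicate 2 belongs to another region in the same promoter. The summit also falls in the promoter of the neighbouring gene Y49F6B.2, so the files do not tie it to col-71 alone.

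Second came col-93 (WBGene00000668, chromosome III, 10984552 to 10985609, minus strand), with a pooled value of 21.8, rank 705. Its summit lay 487 bp upstream, in no other gene's promoter, and both replicates had a region there, at 13.1 in replicate 1 and 6.56 in replicate 2. Next was col-168 (WBGene00000741, chromosome X, 6326388 to 6327293, plus strand), at 17.1 pooled and rank 2162, with the summit 1352 bp upstream. In replicate 1 this region had the highest value of any member, 18.7 and rank 248, but replicate 2 had no summit in the promoter of col-168. A replicate 2 region of 4.96, at 6324586 to 6324901, overlapped the pooled region and the edge of the promoter, with its summit outside the promoter.

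The sequences at the summits of the leading members are shown because they are where the signal of the family was highest. Each is 101 bases of the RefSeq WBcel235 genome centred on the pooled summit, plus strand, with col-61, the fourth highest, not shown. The last is the same window of the thresholded peak that lies nearest to any col- gene, beyond the promoter of col-94. Capitals mark the core AAAGTT, or AACTTT where it lies on the other strand. The windows are chrII:3502816-3502916 for col-71, chrIII:10986046-10986146 for col-93, chrX:6324986-6325086 for col-168, chrIV:8979939-8980039 for col-119, chrX:13468620-13468720 for col-183 and col-184, chrIV:14099730-14099830 for col-133, chrIV:1548402-1548502 for col-107, chrV:9166489-9166589 for col-10 and chrIII:10989588-10989688 for the peak by col-94.
col-71: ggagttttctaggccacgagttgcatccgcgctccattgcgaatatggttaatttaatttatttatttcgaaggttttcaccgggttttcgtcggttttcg
col-93: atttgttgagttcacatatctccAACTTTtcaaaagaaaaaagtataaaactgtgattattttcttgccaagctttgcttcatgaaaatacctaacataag
col-168: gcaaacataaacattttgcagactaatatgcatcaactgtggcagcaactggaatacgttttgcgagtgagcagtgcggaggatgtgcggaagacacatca
col-119: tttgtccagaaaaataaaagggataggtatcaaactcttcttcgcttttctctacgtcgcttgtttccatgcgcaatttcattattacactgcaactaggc
col-183: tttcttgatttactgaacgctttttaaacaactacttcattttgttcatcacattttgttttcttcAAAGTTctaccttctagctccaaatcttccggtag
col-133: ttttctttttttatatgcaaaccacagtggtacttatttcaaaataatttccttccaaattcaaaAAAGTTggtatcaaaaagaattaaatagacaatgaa
col-107: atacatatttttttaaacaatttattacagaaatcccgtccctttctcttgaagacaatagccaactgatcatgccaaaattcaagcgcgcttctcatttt
col-10: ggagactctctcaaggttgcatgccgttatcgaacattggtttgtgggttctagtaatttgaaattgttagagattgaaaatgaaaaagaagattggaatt
peak by col-94: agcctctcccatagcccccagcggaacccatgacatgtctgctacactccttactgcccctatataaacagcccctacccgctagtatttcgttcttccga
Of the 8 windows at members shown, 3 hold the core: those of col-93, of the pair col-183 and col-184, and of col-133. The windows of col-71, with the highest pooled value of the family, and of the peak by col-94 do not. Their GC content ran from 23.8% at col-133 to 53.5% at the peak by col-94, with 42.6% at col-71 and 28.7% at col-93.

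Over all 42 distinct pooled regions of the col- genes, 8 held the core within 50 bp of the summit, or 19.05% (Wilson interval 9.98 to 33.3). Among the 5852 windows of other genes it was 18.6%, so the core was about as frequent at both. Median GC of these windows was 34.2% at col- genes and 33.7% at other genes. Over a whole promoter of 2001 bp the 6 letters on either strand carry little information, being present in 150 members (96.2%) and in 97.5% of the other genes. A match is a description of letters, not a binding site.

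The next members had lower pooled values. A region with its summit inside col-61 (WBGene00000637) had a pooled value of 16.4, with 13.9 in replicate 1 and no promoter region in replicate 2. The region of col-119 (WBGene00000693, 194 bp upstream) was at 15.8, with 10.5 in replicate 1 and none in replicate 2. For col-107 (WBGene00000681, 269 bp upstream) the pooled value was 13.9, with 12.7 in replicate 1 and none in replicate 2. These members, like col-168, were thus listed in replicate 1 and not in replicate 2.

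A single region served col-183 (WBGene00000756) and col-184 (WBGene00000757), which are transcribed away from each other on the X chromosome. Its summit lay 906 bp upstream of col-183 and 785 bp upstream of col-184, with a pooled value of 15.4, a value of 7.65 in replicate 1 and no region in replicate 2. The promoter of col-133 (WBGene00000707) held 3 pooled regions, the highest at 15.1 and 424 bp upstream. It was the leading member of replicate 2, at 14.2 and rank 365, with 7.08 in replicate 1. The region of col-10 (WBGene00000599), 1232 bp upstream, was at 13.8 pooled and 7.09 in replicate 2, and replicate 1 listed none.

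Many col- genes were named by 1 replicate alone. Besides the 27 members in both replicate lists, 43 were in that of replicate 1 alone, 41 in that of replicate 2 alone and 45 in neither. These are 27.6%, 26.3% and 28.8% of the members, against 20.9%, 21.4% and 30.002% of the other genes. Of the 10 highest members of each replicate, 1 was shared, col-71. Its values of 13.4 in replicate 1 and 9.80 in replicate 2 came from different regions. The second member of replicate 1, col-2, stood at 14.9 there, 11.95 pooled and not listed in replicate 2, with a summit 874 bp upstream that is also in the promoter of ndc-80. The second member of replicate 2, col-114 (WBGene00000688), stood at 12.1, rank 765, and had no promoter region in the pooled or the replicate 1 list. Likewise col-156 (8.91) and col-52 (8.91) were among the highest of replicate 2 and absent from replicate 1, col-52 having a pooled value of 11.7.

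Over the 27 members in both lists the replicates' values had a Pearson correlation of 0.19 and a Spearman correlation of 0.0034. Over the 5490 other genes in both lists these were 0.91 and 0.24. Each value is the highest in the promoter in its list, so the values paired can come from different regions, as at col-71. No interval was made for the correlations, and 27 members are few. These correlations are across genes of the same 2 libraries, and those of the other genes include the mitochondrial genes with their very high values. Replicate 1 was above replicate 2 in 18 of the 27 (66.7%), against 65.6% of the other genes in both lists, and each list has a scale of its own.

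**Figure D3:**
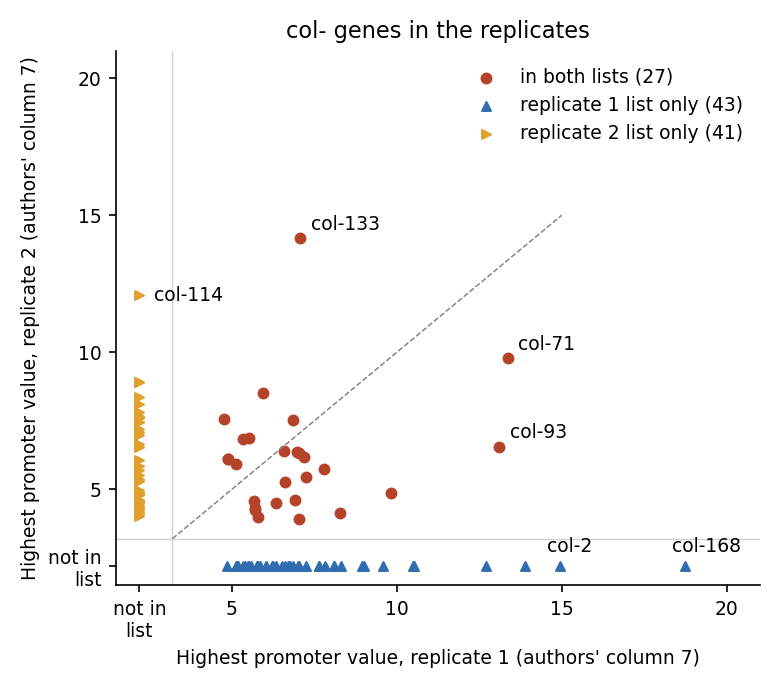
Highest promoter value of each col- gene in replicate 1 (horizontal axis) and replicate 2 (vertical axis), the authors' values without a stated scale; circles are the 27 members in both lists, triangles along the margins the 43 and 41 members in 1 list, and the dashed line marks equal values. The highest members of either replicate, col-168 at 18.7 and col-133 at 14.2, lie far from the line, col-168 on the margin.

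The replicates were also set side by side at the exact place of each pooled region. At the pooled summits of the 43 members, both replicates had a region in 10 (23.3%), against 31.3% for other genes. Replicate 1 alone had one in 14 (32.6%, against 33.6%) and replicate 2 alone in 13 (30.2%, against 25.7%). At the summits of 6 members (13.95%) neither replicate listed a region, against 9.42% for other genes.

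Among col- genes studied for their expression, 13 of 14 landmark names were found in the annotation, all but col-6. Of these 13, 3 had a pooled promoter region (col-2, col-10 and col-93), 6 a region in replicate 1, 6 in replicate 2 and 3 in both. The shares over the other protein-coding genes are 35.8%, 48.6%, 49.1% and 27.7%, so with 13 genes these counts are not told from background. The dauer-stage collagen gene col-2 and the epidermal gene col-10, whose promoter is used to drive transgenes in the epidermis, are given above. The adult-stage collagen gene col-19, a known target of the heterochronic pathway, had no region in any list, and neither had col-13, col-14 and col-120. For col-12, another gene whose promoter is used in the epidermis, the values were 6.63 in replicate 1 and 5.27 in replicate 2, with no pooled region. For col-40 they were 5.80 in replicate 1 and 4.01 in replicate 2, also with no pooled region. In a single replicate list stood col-17 (6.87) and col-99 (6.21) in replicate 1, and col-7 (7.196) and col-34 (4.59) in replicate 2. The name rule takes in col-99, which encodes a transmembrane collagen and not a cuticle one. None of the 13 had a thresholded peak.

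The thresholded peak nearest to the 5′ end of any member lay by the cluster of col-92, col-93 and col-94 on chromosome III. This peak, at 10989450 to 10989825, had a value of 71.8 and rank 43 of 210. Its summit was 1765 bp upstream of col-94 (WBGene00000669). Both replicates had a region there, at 44.3 in replicate 1 and 22.6 in replicate 2. A second pooled region, of 26.8 and rank 356, had its summit 199 bp farther from col-94. The summit lies within dhc-4, a gene on the plus strand that spans the whole cluster, and 41 bp from the 5′ end of R07E5.16, annotated as a small nuclear RNA gene. The promoter of col-94 itself held no region in any of the 3 long lists. That of col-93 held the region at 21.8 pooled described above, 4029 bp being the distance from its 5′ end to the peak. That of col-92 (WBGene00000667, 6385 bp from the peak) held one of 9.52, rank 18438, with 7.64 in replicate 2 and none in replicate 1. Much of the sequence of these genes is not unique: 74.7% of the 31-base words of col-92, 58.2% of those of col-93 and 83.9% of those of col-94 occur more than once in the genome. The pooled region upstream of col-93 holds no such word.

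**Figure D4:**
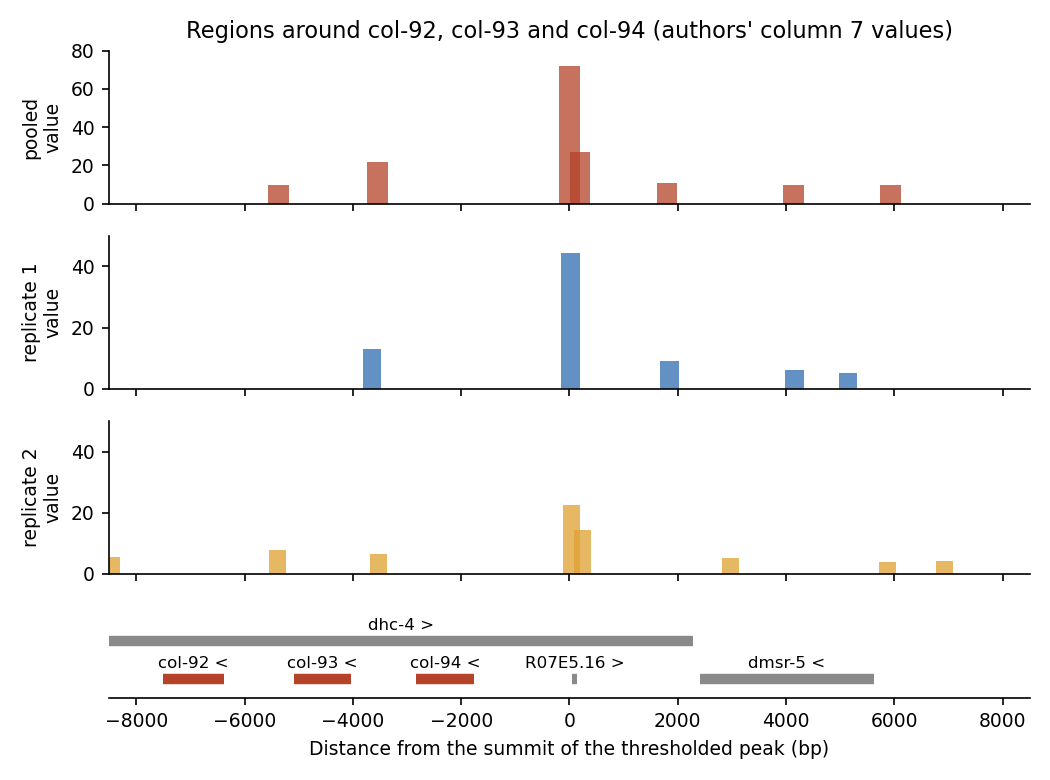
Regions of the pooled list and of both replicate lists around col-92, col-93 and col-94, by distance from the summit of the thresholded peak (horizontal axis, bp) and the authors' value (vertical axis), with the genes drawn to scale. The peak at 0 stands at 71.8 pooled, outside the promoter of col-94, with a second pooled region of 26.8 beside it. The highest region within a promoter of these col- genes is that of col-93, at 21.8.

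Other members near a thresholded peak did not have high promoter values. The 5′ end of col-185 (WBGene00000758) lay 3423 bp from a peak of 35.5, with 25.1 in replicate 1 and 12.9 in replicate 2, while its own promoter had 10.4 pooled, 5.70 in replicate 1 and 4.24 in replicate 2. The 5′ end of col-38 (WBGene00000615) lay 7636 bp from a peak of 39.4, which is 85 bp from the 5′ end of iff-2. Replicate 1 had a region of 25.3 at the summit of that peak, and replicate 2 listed none there. The promoter of col-38 had a region of 7.001 in replicate 2 alone. Within 10000 bp of a thresholded nuclear peak lay the 5′ ends of 6 members (3.85%), against 3.79% of the other nuclear genes. The median distance was 154480 bp for the members and 235278 bp for the other nuclear genes.

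In the row of col-167 to col-171 on the X chromosome, all transcribed in the same direction, the regions differed by gene and by replicate. The promoter of col-167 had 11.0 pooled and 9.02 in replicate 1. That of col-168 had the 17.1 given above, and its neighbour col-169 had only 4.24 in replicate 2. In replicate 1 col-170 had 5.53 and col-171 had 6.35, with nothing pooled for either. Most of the bodies in this row are largely made of repeated sequence: 85.5% of the 31-base words of col-167 and 95.5% of those of col-168 occur more than once, but only 2.24% of those of col-171. The region upstream of col-168 itself holds no repeated word.

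Genes close together can also share values by position alone. The genes col-159 and col-160 overlap and both had 4.88 in replicate 1 and 6.11 in replicate 2, from the same regions. Of the 156 members 50 have another col- gene within 5 kb, and 13 of these (26%, interval 15.9 to 39.6) had a pooled promoter region. Of the other 106 members it was 30 (28.3%, 20.6 to 37.5), so members in clusters and members alone differed by less than their counting error.

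The position of the highest pooled summit within the promoter was compared next. Of the 43 members 35 (81.4%) had the summit upstream, against 80.5% of the other genes, with 75% of the window lying upstream. The median position was 657 bp upstream (quartiles 890 and 224) for col- genes and 413 bp upstream for other genes. Between 500 and 1000 bp upstream lay the summits of 19 members (44.2%, interval 30.4 to 58.9), against 23.2% of the other genes. That band is made of the 250 bp bins with the most members, 11 and 8. Its interval does not allow for the choice of band. Within 250 bp of the 5′ end on either side lay those of 6 members (13.95%, 6.56 to 27.3), against 29.0%. With the window cut to 500 bp upstream and 100 bp downstream, 10 members (6.41%) kept a region, against 16.1% of the other genes, and the median of their values was then 13.6. Few of the summits were shared: 7 of 43 (16.3%) also lay in another gene's promoter, against 34.01% for other genes. Those 7 were col-2, col-8, col-71, col-88, col-89, col-183 and col-184.

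**Figure D5:**
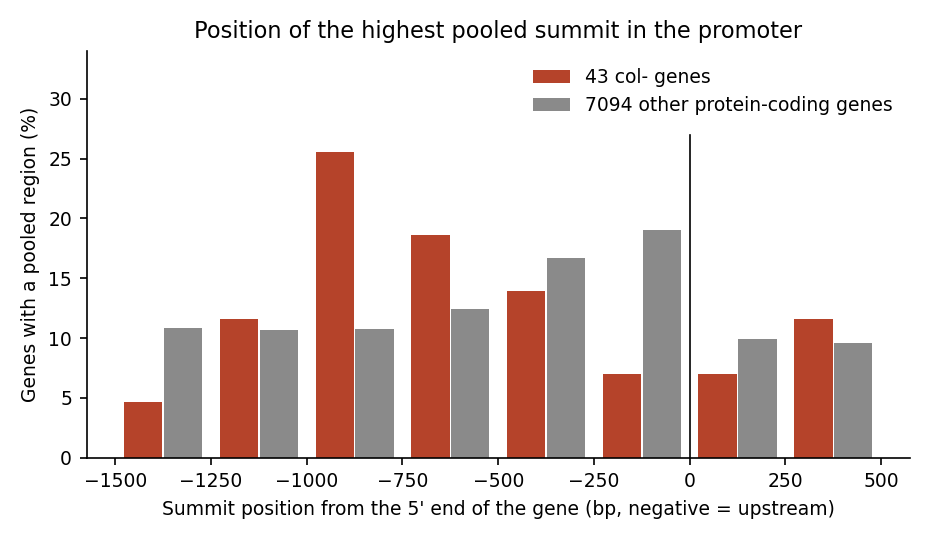
Position of the highest pooled summit relative to the gene's 5′ end (horizontal axis, bp, negative upstream, in bins of 250 bp) for 43 col- genes and 7094 other genes (vertical axis, percent of each group). The bin that starts 1000 bp upstream holds 11 col- genes (25.6%), and the bin just upstream of the 5′ end holds 3 (6.98%).

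The promoters of col- genes differ in composition from those of other genes, and their part in the results was not tested beyond the splits that follow. Median GC content was 37.3% (quartiles 34.9 and 39.96) at members and 35.2% at other genes. Above the median of all genes, 35.3% GC, 30 of 107 members (28.04%, interval 20.4 to 37.2) had a pooled region, against 34.3% of the other genes. At or below it the count was 13 of 49 (26.5%, 16.2 to 40.3), against 37.2%. Repeated 31-base words made up over 10% of the promoter in 40 members (25.6%), against 16.2% of the other genes. In these 40 the pooled share was 22.5% (12.3 to 37.5), against 20.5% of the other genes with such promoters. In the remaining 116 members it was 29.3% (21.8 to 38.2), against 38.7%. The differences between these classes were not tested, and the intervals of both GC classes and of the repeated promoters hold the share of the other genes. Of the 42 distinct pooled regions themselves 34 held no repeated word and 3 held over 10%, those of col-72, col-85 and col-185.

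Bodies of col- genes also held few summits. A pooled summit lay in the body of 25 members (16.0%), against 33.6% of the other genes, but the members are shorter, with a median of 1220 bp against 2036 bp. Per kb of gene the pooled list had 0.128 summits in col- genes and 0.189 in other genes. Replicate 1 had 0.217 per kb in col- genes and 0.291 in other genes, and replicate 2 had 0.188 and 0.285. Repeated words made up over 10% of the body in 44 members (28.2%), against 15.7% of the other genes, and no note or label says how reads that fit several places were treated.

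By chromosome the pooled share of members varied with small counts. On V it was 5 of 31 (16.1%), against 31.2% of the other genes there, and on chromosome I it was 4 of 21 (19.05%), against 40.4%. On II it was 5 of 24 (20.8%), against 32.1%. On X it was 9 of 27 (33.3%, against 35.4%) and on IV 14 of 41 (34.1%, against 35.6%). On III it was 6 of 12 (50%), against 44.6%. That order did not hold on III in the replicate lists. Replicate 1 named 3 of the 12 there (25%), against 56.1% of the other genes, and replicate 2 named 6 (50%), against 55.4%. In replicate 1 the members' share was above that of the other genes on II, IV and X. It was 50% against 47.2% on II, 53.7% against 48.3% on IV and 48.1% against 47.2% on X. On I and V in replicate 1, and on every chromosome in replicate 2, it was below.

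Cuticle collagen genes with other names gave counts near the background. Of 20 such genes, named for the body shapes or blisters of their mutants, 6 had a pooled promoter region, 10 a region in replicate 1, 10 in replicate 2 and 5 in both. That is 30%, 50%, 50% and 25%, beside 35.8%, 48.6%, 49.1% and 27.7% of all genes outside the col- family. None had a thresholded peak, which at 1.01% of genes says nothing for a list of 20. The pooled median of those 6 was 12.7. The highest were dpy-4 at 14.98 pooled (8.97 in replicate 1, 5.47 in replicate 2), dpy-9 at 13.8 (8.60 in replicate 1 alone) and dpy-13 at 13.2 (6.59 in replicate 1 alone). Then came bli-2 at 12.2 (5.73 in replicate 2 alone) and dpy-8 at 10.8 (8.59 in replicate 1, 11.3 in replicate 2).

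Of 13 genes for collagen processing and cross-linking 2 had a pooled region (15.4%, beside 35.8% of all genes outside the col- family), both encoding prolyl 4-hydroxylase subunits. These were phy-3 at 16.9 (5.63 in replicate 1, 8.80 in replicate 2) and phy-2 at 10.7 (6.40 in replicate 1, 6.80 in replicate 2). Of the 3 basement membrane collagen genes 1 had a pooled region, 0 a region in replicate 1 and 2 in replicate 2. That is 33.3%, 0% and 66.7%, beside 35.8%, 48.6% and 49.1%. The pooled region was that of let-2, for a type IV collagen chain, at 11.9, and let-2 had no region in either replicate list. Of 12 regulators of epidermis and moulting 7 had a pooled region (58.3%, beside 35.8%) and 6 a region in both replicate lists (50%, beside 27.7%), none thresholded. They included the transcription factor genes blmp-1 (16.7 pooled), lin-14 (14.6), grh-1 (13.1) and lin-26 (12.6), and the gene of the RNA-binding protein lin-28 (12.4). All these lists were made with results of these data known and are too short to rank against each other.

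Among the col- genes, then, 27.6% had a pooled promoter region, with a median value of 11.6, 17.3% had a region in both replicate lists, and 0 had a thresholded peak. Of 220 srh- genes, a family of chemoreceptors, 25% had a pooled region, with a median of 11.5, 13.2% a region in both replicate lists, and 0 a thresholded peak. Of 78 rpl- and rps- genes, which encode ribosomal proteins, 69.2% had a pooled region, with a median of 16.0, 64.1% a region in both replicate lists, and 13 (16.7%) a thresholded peak. Over all genes outside the col- family these values were 35.8%, 12.4, 27.7% and 1.01%, so the col- genes lay nearer to both the srh- genes and the average gene than to the ribosomal protein genes.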

How the data were processed

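Chromatin immunoprecipitation of ZTF-11 was sequenced in 2 biological replicates of whole L2 larvae, grouped by the replicate number in the labels. Per the text notes deposited with the samples, the authors called regions on each replicate and on both pooled, each against a control. They deposited these long lists, which mix peaks and background, and a thresholded set derived from them by the irreproducible discovery rate. The sources used here name no aligner, caller, version or threshold, and the depth of each library is unknown. The deposited score of a region (column 7) is the authors' value relative to the control, with no stated scale, and served to rank regions inside each list. The deposited summit offset (column 10) placed each summit. The lists on ce10 were not used here.

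A gene's 5′ end came from Ensembl release 115 and its promoter value is the highest score among summits from 1500 bp upstream to 500 bp downstream. Sequence came from RefSeq WBcel235. A repeated word is a run of 31 bases that occurs more than once in the genome on either strand. Shares carry 95% Wilson intervals, and the members' pooled median carries a 95% interval from binomial ranks. The difference in pooled share carries a 95% Newcombe interval. Assigning summits to promoters was tested on simulated regions of known place and value. The members, lists and alternatives were chosen with earlier results of these data known. Members named are the 10 highest pooled, the 5 highest in each replicate, the 5 nearest to a thresholded nuclear peak and 14 landmarks, with up to 5 genes of each list; others were named after their values were seen, or for their place in a cluster. The tools were Python 3.11.15, numpy 2.4.6, pandas 2.3.3, statsmodels 0.14.6 and matplotlib 3.10.9.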

Additional observations from a re-analysis of the deposited data

How the results depend on the processing

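The share of col- genes with a pooled promoter region was 27.6%, and it lay below that of the other genes in 13 of 13 alternatives for the difference, which lay between -10.3 and -4.13 percentage points. The smallest gap came from leaving out the 77 members whose promoters overlap that of another gene, where the share was 31.6% of 79 members. With such genes left out on both sides the difference was -4.36 points (other genes 36.004%). No interval was made for the differences of the alternatives. It moved with the window and the depth of the list: to 39.7% (other genes 50.1%) with 3000 bp upstream, to 6.41% (other genes 16.1%) with 500 bp upstream and 100 bp downstream, and to 13.5% (other genes 20.8%) in the upper part of the pooled list above its median. With 3000 bp upstream the count of members with a thresholded peak was 1, col-94, and in the other alternatives it was 0. The median pooled value was 13.6 in the narrow window, over 10 members, against 12.6 for other genes there, above and not below them. With each replicate list shortened to the length of the pooled list, the shares were 30.1% in replicate 1 (other genes 36.4%), 27.6% in replicate 2 (other genes 36.7%) and 7.69% in both (other genes 17.1%). Reading the shortened list of a single replicate in place of the pooled one gave between 27.6% and 30.1%. Leaving out promoters with over 10% repeated words gave 29.3% (other genes 38.7%), and keeping nuclear genes only left the difference at -8.17 points; these alternatives and the differences without overlapping promoters were chosen after the data were seen.

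Unknown depth, the mixing of background into the long lists, the unstated scale of the values and the unstated treatment of reads from near-identical genes limit every count here.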

Other observations

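The replicate lists named members in common about as often as the product of their shares. Multiplying the shares of col- genes with a promoter region in replicate 1 and in replicate 2 gives 19.6%, and 17.3% had one in both. For the other protein-coding genes the product was 23.9% and the share in both 27.7%. These are descriptions of 2 libraries and were not tested.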
